A study of Mus musculus with 25 samples.

Results

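Transcripts typical of macrophages and monocytes were present in bulk RNA isolates of CD8+ T cells, and 34 such genes were followed across the isolates. They form a list of known myeloid genes that was drawn up with earlier results of these data known, and all 34 were found among the 23366 gene symbols of the expression table. The isolates came from B16F10 tumours, a transplanted mouse melanoma, and the study asked how loss of the transcription factors Blimp-1 (gene Prdm1) and c-Maf (gene Maf) alters tumour-infiltrating CD8+ T cells. There were 3 Prdm1 cKO libraries, 3 Prdm1/c-Maf cDKO libraries, 3 c-Maf cKO libraries and 16 wild-type libraries, where cKO is a conditional knockout, cDKO is a conditional deletion of both genes, and every mouse was of the C57BL/6 strain. The sources used here give neither the deleting line, nor the sex and age of the mice, nor whether libraries came from separate animals, so p-values measure only the spread between libraries. Libraries are named by the code in their column of the table.

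Macrophages arise from monocytes or from embryonic precursors and depend on signals through the receptor Csf1r. In tumours they engulf debris, cells and antibody-coated targets through Fc receptors, complement and scavenger receptors, and they release chemokines. The cytokines IL-4 and IL-13 drive a state called alternative activation through the factor STAT6, with the genes Retnla, Arg1, Mrc1 and Mgl2 among its classical mouse markers. PU.1 is the transcription factor that sets the myeloid programme, and none of the macrophage genes named here is a defining gene of CD8+ T cells.

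The isolates carried their labelled cell type in each group. The summed signal of 8 T cell genes (Cd3e, Cd3d, Cd3g, Cd247, Cd8a, Cd8b1, Cd2 and Cd5) was 1337 to 1657 in Prdm1 cKO, 1255 to 2338 in Prdm1/c-Maf cDKO, 2305 to 2463 in c-Maf cKO and 1070 to 3033 in wild type. The summed signal of the 34 myeloid genes was 2219 to 6775 in Prdm1 cKO, 186 to 533 in Prdm1/c-Maf cDKO, 305 to 2094 in c-Maf cKO and 106 to 3429 in wild type. The myeloid sum therefore varied far more between libraries than the T cell sum. In bulk samples, fewer cells of a type and less RNA per cell cannot be told apart. Prdm1 signal was 0.41 to 4.71 in Prdm1 cKO, 1.18 to 4.69 in Prdm1/c-Maf cDKO, 14.4 to 20.3 in c-Maf cKO and 6.45 to 24.9 in wild type. Maf was low throughout, at 0 to 0.18 in Prdm1/c-Maf cDKO and 0.03 to 0.95 in wild type. The library labelled c-Maf cKO C1 had 0.93 Maf, and the other c-Maf cKO libraries were listed at 0. Columns stand in 3 runs, called column sets below, and each knockout group lies in 1 of them beside its own wild-type columns, so these sets are a candidate batch. The code letter, which opens each library code (A, B or C), is another candidate, and its meaning is not given.

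The promoter of Retnla is shown first because the pattern of this gene differed most from the others. Its letters hold all 4 motifs that were searched for, and the share of all windows that do so was not computed. The window runs from 250 bases before to 50 bases after the annotated start, on the plus strand of chr16:48842359-48842658 of GRCm38.p6 (RefSeq), with motif matches in capitals.
Retnla: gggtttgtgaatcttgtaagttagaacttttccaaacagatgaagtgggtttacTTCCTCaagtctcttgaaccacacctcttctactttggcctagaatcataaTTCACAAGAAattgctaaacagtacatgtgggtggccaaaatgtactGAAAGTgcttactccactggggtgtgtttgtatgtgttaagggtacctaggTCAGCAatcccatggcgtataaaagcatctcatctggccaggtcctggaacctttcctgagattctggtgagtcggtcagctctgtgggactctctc
From 5′ to 3′ the capitals are the PU.1 core GAGGAA read on the opposite strand, the STAT6 palindrome (TTC and GAA with 4 bases between), the Blimp-1 core GAAAGT, and the Maf half-site TGCTGA read on the opposite strand. Both strands were searched, and the matches do not overlap. Promoter windows were at hand for 27 of the 34 genes. The PU.1 core occurred in 18 of these 27 windows (66.7%), against 28.3% of 27025 windows of the mouse annotation. The STAT6 motif occurred in 2 of 27, in Retnla and Ms4a7 (7.41%, against 6.99% of all windows), the Maf half-site in 6 of 27 (22.2%, against 19.1%) and the Blimp-1 core in 4 of 27 (14.8%, against 14.3%). A match describes letters in a window and does not show binding.

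The lysozyme genes Lyz2 and Lyz1 are neighbouring near-identical copies. Lyz2 encodes the lysozyme of macrophages, and Lyz1 is best known from Paneth cells of the gut. The last 150 bases of their promoter windows, on the minus strand of chr10:117282223-117282372 for Lyz2 and chr10:117292819-117292968 for Lyz1 (GRCm38.p6, RefSeq), are shown because 141 of the 150 bases are identical; capitals mark the bases that differ.
Lyz2: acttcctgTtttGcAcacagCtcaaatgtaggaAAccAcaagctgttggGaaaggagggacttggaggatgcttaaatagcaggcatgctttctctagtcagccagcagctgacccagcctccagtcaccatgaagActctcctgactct
Lyz1: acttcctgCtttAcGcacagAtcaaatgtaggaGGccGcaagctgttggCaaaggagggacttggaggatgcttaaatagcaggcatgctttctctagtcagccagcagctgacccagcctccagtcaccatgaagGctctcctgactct
Their coding sequences were identical at 425 of 447 bases (95.1%), with an identical run of 118 bases, so the authors' counting could split reads between them. Lyz1 signal was 14.8% to 16.4% of Lyz2 signal in Prdm1 cKO, 8.57% to 17.6% in Prdm1/c-Maf cDKO, 11.4% to 16.6% in c-Maf cKO and 11.1% to 16.9% in wild type. The ratio stayed within this band while Lyz2 itself ran from 7.24 to 1736. Values of Lyz1 are uncertain because of the shared bases.

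To follow the genes against a shared level, a myeloid index was taken as the mean log2(value + 1) of 9 of them (Csf1r, Cd68, C1qa, C1qb, C1qc, Emr1, Lyz2, Ms4a7 and Cd14). The index was 5.65 in A5, 5.69 in A6 and 6.999 in A9 of Prdm1 cKO, a mean of 6.11 ± 0.77 (SD, n = 3). It was 2.87 in C2, 2.52 in A1 and 1.17 in A2 of Prdm1/c-Maf cDKO (2.19 ± 0.90), and 2.90 in B10, 3.31 in B11 and 5.72 in C1 of c-Maf cKO (3.98 ± 1.52). Wild-type libraries ran from 0.87 to 6.34 with a median of 4.02 (mean 3.51 ± 1.59, SD, n = 16). The wild type thus spanned nearly the whole range, and A9 was the 1 knockout library above all wild-type libraries. Within column sets, the Prdm1 cKO libraries stood beside wild-type values of 1.28 to 6.34, the Prdm1/c-Maf cDKO libraries beside 0.87 to 3.98, and the c-Maf cKO libraries beside 2.36 to 4.76. Wild-type libraries of column set 3 had a lower mean index (2.54 ± 1.13, n = 5) than those of column set 1 (4.01 ± 1.94, n = 7).

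**Figure D1:**
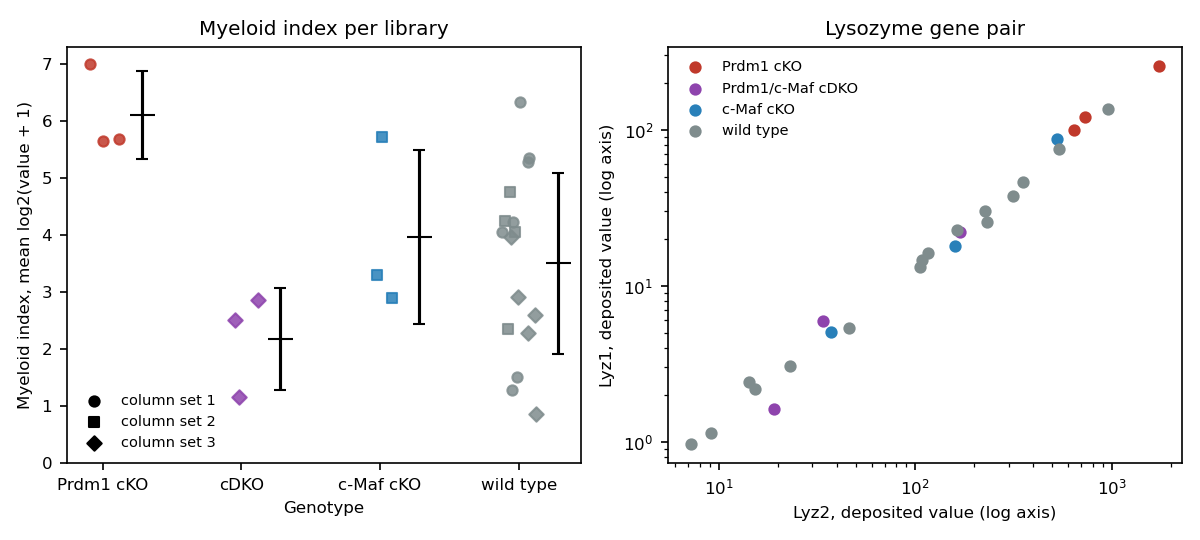
Left, the myeloid index (mean log2(value + 1) of 9 genes) per library by genotype, with marker shape for column set and bars for mean ± SD; the 3 Prdm1 cKO libraries lie at 5.65 to 6.999 and the wild type at 0.87 to 6.34. Right, Lyz1 against Lyz2 deposited signal on log axes in 25 libraries; the points lie along 1 line, with Lyz1 at 8.57% to 17.6% of Lyz2.

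Within the wild type alone, most of the genes moved together. Each gene was correlated with the index over the 16 wild-type libraries, leaving the gene out of the index where it belonged to it. At a permutation p adjusted over all 12251 genes tested, 26 of 34 were positively correlated with the index, against 1.27% of all genes tested. C1qa, which encodes a chain of the complement recogniser C1q, had r = 0.98 and rho = 0.94, and r = 0.96 without the 2 libraries farthest from the median index. Lyz1 followed at r = 0.97 and rho = 0.97, and Fcer1g, the signalling chain of Fc receptors, at r = 0.97 and rho = 0.94. For each of these 3 genes the permutation p was 1e-05, the smallest that 100000 resamples can give, for r and for rho, with an adjusted p of 0.00272 for r and 0.00340 for rho. As deviations from the column set means their r was 0.97, 0.98 and 0.97. The index holds Lyz2, with which Lyz1 may share reads, so the Lyz1 correlation may be partly built in. The number past the threshold was 21 of 34 without the 2 farthest libraries, A11 and B4, and 19 of 34 as deviations from column set means.

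The remaining 8 genes did not pass, and they were Itgam, Ms4a6c, Arg1, Retnla, Ccl8, Pf4, Timp1 and Pmp22. Timp1, an inhibitor of metalloproteinases made by many cell types, had the lowest correlation in the list (r = 0.40, permutation p = 0.129, adjusted p = 0.647; rho = 0.29, permutation p = 0.269). Arg1, the enzyme that breaks down arginine, had r = 0.65 (permutation p = 0.00641, adjusted p = 0.189) and rho = 0.61 (permutation p = 0.0132), and r fell to 0.52 without the 2 farthest libraries. Arg1 scattered most around the wild-type line, with a residual SD of 1.78 log2 units, next to 0.43 for C1qa. In the wild-type library B3, Arg1 signal was 221% of Lyz2 signal and Pf4 signal 80.4%, against wild-type medians of 21.1% and 10.04%. Retnla had r = 0.63 (permutation p = 0.00701, adjusted p = 0.198) but rho = 0.83 (permutation p = 0.00011, adjusted p = 0.0187), and it was listed at 0 in 10 of the 16 wild-type libraries.

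**Figure D2:**
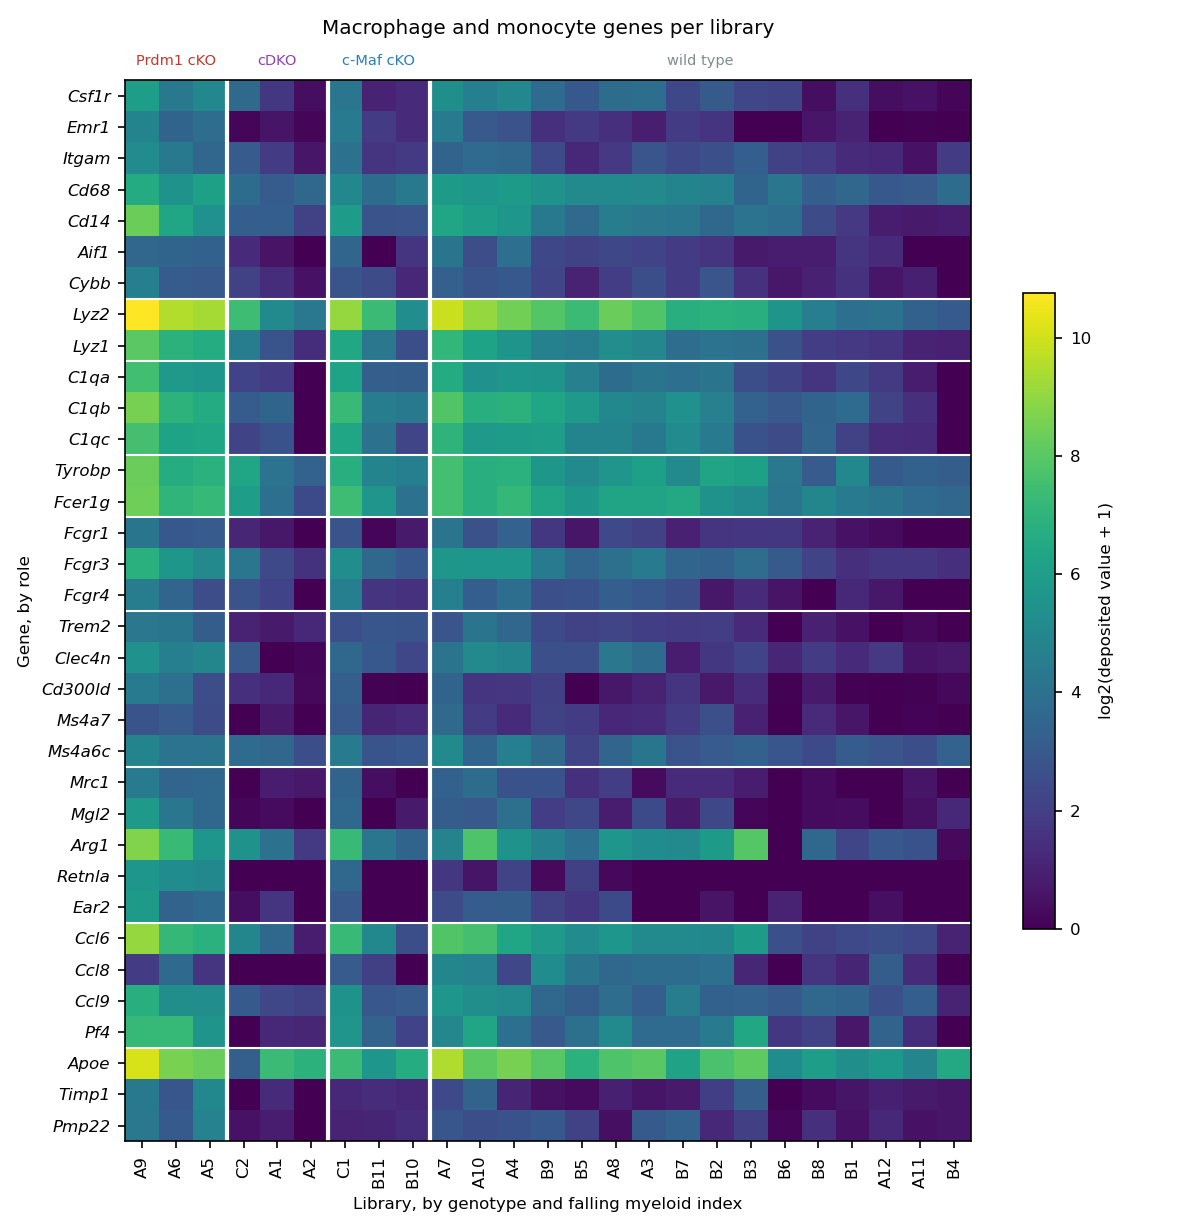
log2(deposited value + 1) of the 34 genes (down, by role) in 25 libraries (across, by genotype and then by falling myeloid index; white lines part the roles and genotypes). Within each genotype most genes fade from left to right together, while Retnla is bright in the 3 Prdm1 cKO libraries and in the c-Maf cKO library C1, which has 11.4.

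In Prdm1 cKO against wild type, 33 of the 34 genes had a positive log2 difference, and 7 were called higher and 0 lower. A call is an adjusted p under 0.05 from limma over all 12251 genes tested, of which 1.58% were called higher and 1.87% lower. The 7 were Retnla, Timp1, Cd300ld, Ear2, Pmp22, Mgl2 and Emr1. The median log2 difference of the 34 was 2.51, beside -0.02 for all genes tested, and 32 had an unadjusted p under 0.05. No share of all genes was computed for unadjusted p, here or below. Most of the 34 moved together within the wild type, so these counts are not separate observations. All 34 genes passed the filter on low values, and all 34 passed it also when the Prdm1 cKO libraries were left out of the count. The number of calls among the 34 rested on single libraries. It was 1 (Retnla) without A9, 3 without A6, and 12, 15 and 12 without the wild-type libraries A4, A7 and A10. Calls over all genes, in either direction, moved the same way, so the change was not confined to the 34. They were 423 in the main fit, 78 without A9, 94 without A6, and 661, 555 and 537 without A4, A7 and A10. Adding the column set to the fit left 2 calls among the 34 (Retnla and Timp1), beside 59 over all genes. The median difference of the 34 was then 1.98.

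Of the 7 identity genes, which mark macrophages and monocytes as a class, Emr1 was called higher. Emr1 encodes the surface antigen F4/80. It had 13.4, 9.97 and 27.6 in the Prdm1 cKO libraries A5, A6 and A9, 0.14, 0.54 and 0.11 in the Prdm1/c-Maf cDKO libraries C2, A1 and A2, 1.43, 2.64 and 20.3 in the c-Maf cKO libraries B10, B11 and C1, and 0 to 19.9 with a median of 1.40 in wild type. One wild-type library, A7, lay inside the Prdm1 cKO range, and the difference was 2.72 ± 0.72 (SE, adjusted p = 0.0365, limma). With the column set as covariate it was 2.24 (adjusted p = 0.171).

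Csf1r, the receptor for the macrophage growth factor, had 31.4, 19.3 and 62.6 in Prdm1 cKO, 12.3, 2.33 and 0.31 in Prdm1/c-Maf cDKO, 1.44, 1.07 and 17.6 in c-Maf cKO, and 0.13 to 39.8 (median 5.44) in wild type. Cd68, a lysosomal glycoprotein, had 68.7, 43.4 and 96.2 in Prdm1 cKO, 12.8, 7.66 and 10.9 in Prdm1/c-Maf cDKO, 19.3, 12.99 and 31.7 in c-Maf cKO, and 6.69 to 57.8 (median 27.0) in wild type. Cd14, a co-receptor for bacterial lipopolysaccharide, had 42.3, 79.8 and 325 in Prdm1 cKO, 8.36, 8.4 and 3.25 in Prdm1/c-Maf cDKO, 6.20, 5.91 and 59.6 in c-Maf cKO, and 0.72 to 78.3 (median 14.99) in wild type. In these 3 genes A9 exceeded every wild-type library and the c-Maf cKO library C1 exceeded B10 and B11. Their differences in Prdm1 cKO were 2.47 ± 1.01, 1.56 ± 0.55 and 3.12 ± 1.04, and none passed the threshold (adjusted p of 0.163, 0.108 and 0.0899, limma). The integrin chain Itgam (2.12, adjusted p = 0.0502), the calcium-binding Aif1 (1.65, adjusted p = 0.165) and the NADPH oxidase subunit Cybb (1.85, adjusted p = 0.0558) did not pass either.

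None of the 2 lysozyme genes or the 3 complement genes passed. Lyz2 had 643, 731 and 1736 in Prdm1 cKO, 169, 34.1 and 19.02 in Prdm1/c-Maf cDKO, 37.3, 159 and 528 in c-Maf cKO, and 7.24 to 963 (median 112) in wild type. The spread of Lyz2 in wild type covered 2 of the 3 Prdm1 cKO libraries, and its difference was 3.39 ± 1.23 (adjusted p = 0.116, limma). C1qa had 49.0, 54.9 and 183 in Prdm1 cKO, 3.52, 2.65 and 0 in Prdm1/c-Maf cDKO, 8.15, 8.58 and 75.0 in c-Maf cKO, and 0 to 97.8 (median 13.5) in wild type. C1qb had 98.0, 123 and 372 in Prdm1 cKO, 7.77, 10.2 and 0 in Prdm1/c-Maf cDKO, 19.3, 21.8 and 151 in c-Maf cKO, and 0 to 225 (median 26.2) in wild type. C1qc had 80.5, 73.7 and 193 in Prdm1 cKO, 3.61, 5.46 and 0 in Prdm1/c-Maf cDKO, 3.74, 15.9 and 80.3 in c-Maf cKO, and 0 to 127 (median 20.5) in wild type. These genes, whose products assemble into C1q, gave like differences of 2.85 to 2.94 with adjusted p from 0.135 to 0.172 (limma).

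The adaptors Tyrobp and Fcer1g, which carry signals of receptors without signalling tails, had differences of 2.08 and 2.03 (adjusted p of 0.167 and 0.158, limma). The Fc receptors Fcgr1, Fcgr3 and Fcgr4, which bind antibody-coated targets, had 1.85, 2.39 and 1.63 (adjusted p of 0.109, 0.111 and 0.318). Tyrobp and Fcer1g are also used by NK cells, whose 6 markers summed to 8.59 to 20.7 in Prdm1 cKO and 11.1 to 60.1 in wild type.

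Among the 5 surface receptors, Cd300ld was called higher. Cd300ld belongs to the CD300 family of myeloid immunoglobulin-like receptors. It had 4.80, 14.5 and 20.6 in Prdm1 cKO, 1.70, 1.36 and 0.19 in Prdm1/c-Maf cDKO, 0, 0.04 and 8.66 in c-Maf cKO, and 0 to 9.97 (median 0.69) in wild type. Here A6 and A9 exceeded all wild-type libraries and A5 did not (2.67 ± 0.62, adjusted p = 0.0210, limma; 2.42 with the column set as covariate, adjusted p = 0.108). Ms4a7, a tetraspan gene of macrophages, had 4.47, 7.43 and 5.85 in Prdm1 cKO, 0, 0.71 and 0 in Prdm1/c-Maf cDKO, 1.5, 1.14 and 7.0 in c-Maf cKO, and 0 to 12.4 (median 1.51) in wild type, and it did not pass (1.45 ± 0.56, adjusted p = 0.129). The lipid receptor Trem2 (2.25, adjusted p = 0.0521), the fungal receptor Clec4n, also called Dectin-2 (2.54, adjusted p = 0.0873), and Ms4a6c, a relative of Ms4a7 (1.03, adjusted p = 0.176), did not pass.

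The 5 genes of alternative activation held 3 of the 7 calls. Retnla, which encodes the secreted protein RELMα, had 31.3, 36.9 and 49.7 in the Prdm1 cKO libraries A5, A6 and A9, was listed at 0 in the 3 Prdm1/c-Maf cDKO libraries, had 0, 0 and 11.4 in the c-Maf cKO libraries B10, B11 and C1, and had 0 to 3.68 with a median of 0 in wild type. The lowest Prdm1 cKO library was above each of the other 22 libraries. The difference between Prdm1 cKO and wild type was 4.87 ± 0.55 (SE, adjusted p = 2.78e-05, limma), and 4.63 ± 0.60 with the column set as covariate (adjusted p = 0.000357). Against the 7 wild-type libraries of its own column set, an exact two-sided permutation test gave p = 0.00833, the smallest that 120 splits can give.

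Mgl2, a lectin of the macrophage galactose-binding family, had 11.1, 17.6 and 54.8 in Prdm1 cKO, 0.11, 0.24 and 0 in Prdm1/c-Maf cDKO, 0.73, 0 and 11.3 in c-Maf cKO, and 0 to 14.9 (median 1.04) in wild type. The wild-type library A4 lay inside the Prdm1 cKO range (3.08 ± 0.77, adjusted p = 0.0282, limma; 2.55 with the column set as covariate, adjusted p = 0.152). Ear2, a secreted ribonuclease, had 11.9, 9.62 and 56.8 in Prdm1 cKO, 0.31, 2.15 and 0 in Prdm1/c-Maf cDKO, 0, 0 and 6.92 in c-Maf cKO, and 0 to 7.90 (median 0.42) in wild type. Ear2 and Retnla were the 2 genes of the 34 whose Prdm1 cKO libraries all lay above all wild-type libraries, as did 0.824% of all genes tested. The Ear2 difference was 3.25 ± 0.75 (adjusted p = 0.0212, limma; 2.65 with the column set as covariate, adjusted p = 0.119). Ribonucleases of its family are named after eosinophils, and 5 of 7 eosinophil markers (Prg2, Epx, Ear1, Ear6 and Siglec5) were under 1 in each of the 25 libraries. The 7 summed to 0.53 to 2.14 in Prdm1 cKO and 0.66 to 3.99 in wild type. The mannose receptor Mrc1 (2.57, adjusted p = 0.0510) and Arg1 (2.94, adjusted p = 0.213) did not pass.

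Of the 4 chemokine genes 0 were called. Ccl6, Ccl9 and Pf4 had differences of 3.17, 2.16 and 3.22 (adjusted p of 0.155, 0.0651 and 0.0863, limma). Ccl8, whose product attracts monocytes and T cells, was the 1 gene of the 34 with a negative difference. Ccl8 had 2.04, 11.8 and 2.63 in Prdm1 cKO, 0, 0 and 0 in Prdm1/c-Maf cDKO, 0, 3.12 and 7.51 in c-Maf cKO, and 0 to 36.5 (median 9.44) in wild type. All 3 Prdm1 cKO libraries lay within the wild-type range (-0.43 ± 0.97, adjusted p = 0.849).

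The last 3 genes encode a lipid carrier, a protease inhibitor and a membrane protein. Apoe had a difference of 1.99 that did not pass (adjusted p = 0.190). Timp1 had 31.1, 6.43 and 19.6 in Prdm1 cKO, 0, 1.49 and 0 in Prdm1/c-Maf cDKO, 1.31, 1.59 and 1.30 in c-Maf cKO, and 0 to 9.90 (median 0.725) in wild type. A5 and A9 exceeded all wild-type libraries, while A10 and B3 of wild type exceeded A6 (2.92 ± 0.57, adjusted p = 0.00663, limma; 2.62 with the column set as covariate, adjusted p = 0.0460; without A9 the adjusted p was 0.0601). Pmp22, a membrane protein best known from myelin, had 26.3, 7.32 and 18.8 in Prdm1 cKO, 0.43, 0.74 and 0 in Prdm1/c-Maf cDKO, 1.68, 1.18 and 1.12 in c-Maf cKO, and 0.12 to 9.43 (median 2.40) in wild type. The wild-type library B7 exceeded A6 (2.30 ± 0.57, adjusted p = 0.0261, limma; 2.14 with the column set as covariate, adjusted p = 0.0755). Timp1 and Pmp22 are also made by fibroblasts and endothelium, whose 9 markers summed to 9.55 to 17.7 in Prdm1 cKO, 11.2 to 18.6 in Prdm1/c-Maf cDKO, 2.35 to 5.10 in c-Maf cKO and 3.35 to 13.9 in wild type. Of these 9, Dcn, Pdgfra, Pdgfrb and Kdr were under 1 in each of the 25 libraries. The melanoma marker sum was 709 to 1409 in Prdm1 cKO, 104 to 1425 in Prdm1/c-Maf cDKO, 13.4 to 616 in c-Maf cKO and 6.69 to 3331 in wild type. The erythroid sum was 221 to 1841 in Prdm1 cKO, 461 to 4240 in Prdm1/c-Maf cDKO, 15.8 to 133 in c-Maf cKO and 1.38 to 1568 in wild type. The part of these markers in the results was not tested.

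**Figure D3:**
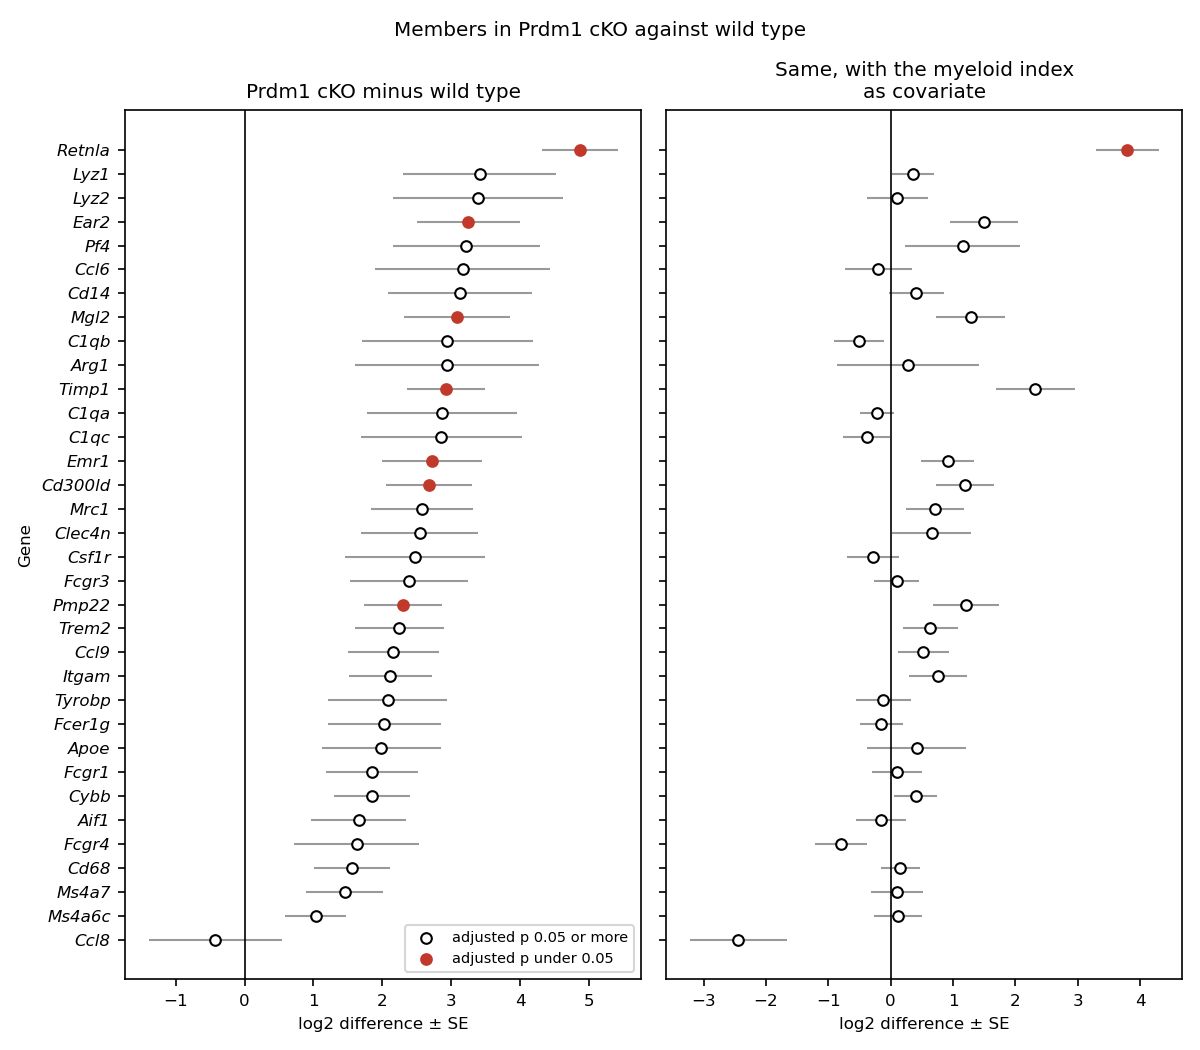
log2 difference ± SE of each of the 34 genes, Prdm1 cKO minus wild type, as fitted (left) and with the myeloid index as covariate (right); filled points have an adjusted p under 0.05. On the left 33 of 34 lie above 0 and 7 are filled; on the right most lie near 0, Retnla is filled at 3.80, and Ccl8 is lowest at -2.44.

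With the myeloid index as a covariate, 1 of the 34 genes, Retnla, was called in Prdm1 cKO, against 0.106% of all genes tested called in either direction. Its difference beyond the index was 3.80 ± 0.50 (adjusted p = 0.000515, limma). It was past the threshold under all 38 alternatives tried, with adjusted p from 2.84e-09 to 0.0466. The highest came with the filter at a minimum of 10, which Retnla passed only through the Prdm1 cKO libraries. Outside these 38, the log2 ratio of Retnla to the index gave an unadjusted exact permutation p of 0.00413. The median over the 34 genes was 0.32 with the covariate, beside 2.51 without it. The pattern is plain in libraries of like index. The Prdm1 cKO libraries A5 and A6, with an index of 5.65 and 5.69, had 31.3 and 36.9 Retnla. The c-Maf cKO library C1 had an index of 5.72 and 11.4 Retnla, and the wild-type libraries A7, A10 and A4, with an index of 6.34, 5.36 and 5.29, had 2.24, 0.54 and 3.68. As a share of Lyz2 signal, Retnla was 2.86% to 5.05% in Prdm1 cKO, 0% in Prdm1/c-Maf cDKO, 0% to 2.16% in c-Maf cKO and 0% to 1.91% in wild type, so the Prdm1 cKO libraries did not overlap the others on this scale either. That Retnla departs was known from these data when the 34 genes were chosen and is not independent evidence.

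The other genes called in Prdm1 cKO lost their calls beside the index. Timp1 had 2.32 ± 0.63 (adjusted p = 0.146, limma), Ear2 1.49 ± 0.55 (adjusted p = 0.279), Mgl2 1.28 ± 0.55 (adjusted p = 0.360), Pmp22 1.21 ± 0.53 (adjusted p = 0.367), Cd300ld 1.19 ± 0.46 (adjusted p = 0.303) and Emr1 0.91 ± 0.42 (adjusted p = 0.399). For these 6 genes the unadjusted p was under 0.05 and the difference stayed positive. Ccl8 had the largest negative value, -2.44 ± 0.78 (unadjusted p = 0.00476, adjusted p = 0.219). Taken instead as a log2 ratio to the index, the Ccl8 difference was -3.02 in Prdm1 cKO against wild type (exact permutation p = 0.00310 over 969 splits) and -3.12 against the wild-type libraries of its column set (exact permutation p = 0.0167 over 120 splits). The Prdm1 cKO libraries A5, A6 and A9 had 2.04, 11.8 and 2.63 Ccl8, while the wild-type libraries A7, A10 and A4, the nearest in index, had 29.4, 26.03 and 3.89. The wild-type library A4 thus lay within the Prdm1 cKO range.

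**Figure D4:**
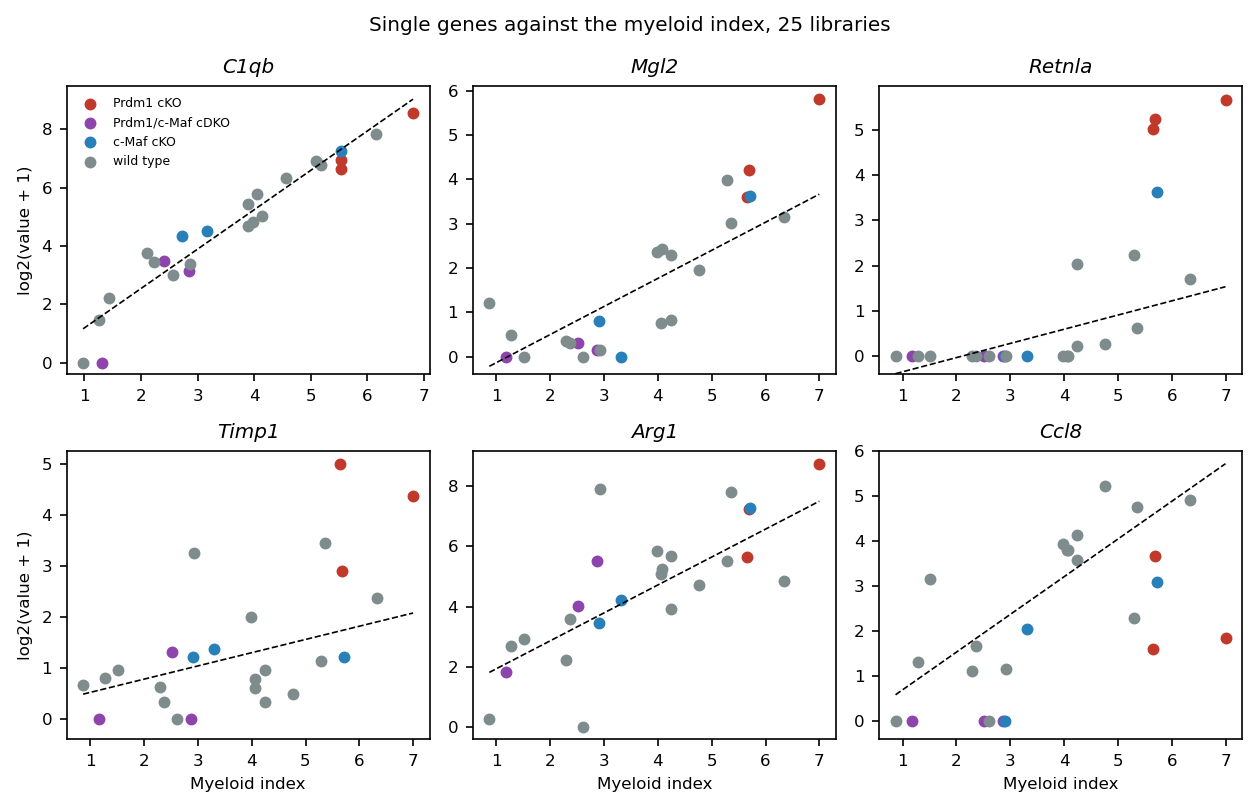
log2(value + 1) of 6 genes against the myeloid index in 25 libraries, with the line fitted to the 16 wild-type libraries; for C1qb the index leaves C1qb out. Most C1qb points lie near the line, with the Prdm1/c-Maf cDKO library A2 and the wild-type library B4, both listed at 0, below it; the Prdm1 cKO libraries lie above it for Retnla (31.3 to 49.7) and below it for Ccl8 (2.04 to 11.8), and Arg1 scatters widely in wild type.

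In Prdm1/c-Maf cDKO against wild type, 0 of the 34 genes were called by limma, where 11.9% of all genes tested were called in either direction. The differences leaned to the negative side: 33 of 34 were below 0, with a median of -0.91 beside -0.03 for all genes, and 3 had an unadjusted p under 0.05. Without A2 the median was -0.59, with 6 of 34 positive, and without C2 it was -1.32. The 3 genes were Ccl8 (-2.80 ± 0.97, adjusted p = 0.0618), Pf4 (-2.66 ± 1.06, adjusted p = 0.114) and Pmp22 (-1.30 ± 0.57, adjusted p = 0.148). With the column set as covariate, 14 of 34 were positive and the median was -0.35, so the sign held less widely beside the wild-type libraries of column set 3. The code letter as covariate moved the values the other way: the median was -1.86, 0 of 34 were positive and 5 were called lower. In that fit 989 of 12251 genes tested were called in either direction. With the index as covariate 0 were called (11.1% of all genes tested), 7 had an unadjusted p under 0.05, and these pointed both ways. C1qa was -0.64 ± 0.24, and Fcgr4 was 0.98 ± 0.38 (adjusted p of 0.0868 and 0.0946). Library C2 departed in single genes: its Apoe signal was 5.00% of its Lyz2 signal, next to 472% and 624% in A1 and A2 and 49.0% to 1221% in wild type.

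In c-Maf cKO against wild type, 0 of the 34 genes were called and 0 had an unadjusted p under 0.05 by limma, and 0% of all genes tested were called. The median difference was 0.27, with 25 of 34 positive, and it rested on library C1: without C1 the median was -0.47, with 5 of 34 positive. Library C1 stood above B10 and B11 for each of the 9 index genes. Its Maf level of 0.93 lay within the wild-type range of 0.03 to 0.95, where Maf was low throughout. The source of this Maf signal was not tested. With the index as covariate, 0 were called and 4 had an unadjusted p under 0.05, among them Csf1r (-1.07 ± 0.36, adjusted p = 0.672), Emr1 (0.93 ± 0.36, adjusted p = 0.735), Trem2 (0.85 ± 0.38, adjusted p = 0.738) and Ccl8 (-1.45 ± 0.67, adjusted p = 0.742).

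The genotypes that lack Prdm1 were also set against each other. In Prdm1/c-Maf cDKO against Prdm1 cKO, all 34 genes were lower in the group means, with a median of -3.37, and 33 of 34 did not overlap, against 8.32% of all genes tested that lay wholly below. The exception was Fcgr4, where C2 had 5.78 and A5 had 4.84. By limma 4 of 34 were called lower, against 0.327% of all genes tested. They were Retnla (listed at 0 in all 3 Prdm1/c-Maf cDKO libraries, adjusted p = 0.000747), Timp1 (-3.65 ± 0.73, adjusted p = 0.0276), Pmp22 (-3.61 ± 0.74, adjusted p = 0.0276) and Mgl2 (-4.38 ± 0.996, adjusted p = 0.0498). These groups lie in different column sets, while A1 and A2 share the code letter A with the Prdm1 cKO libraries. With the code letter as covariate 14 of 34 were called lower, with a median of -3.69. In that fit 167 of 12251 genes tested were called in either direction, next to 48 without a covariate. With the column set as covariate 0 of 34 were called, as were 0 of all 12251 genes tested, and Retnla had an adjusted p of 0.118. With the index as covariate 0 of 34 were called as well, and 0% of all genes tested; Retnla had an adjusted p of 0.0658 and Timp1 of 0.678. Without a covariate, the count among the 34 was 1 when A5, A9, C2 or A2 was left out, and 2 without A1. Of all genes tested, 11, 11, 50 and 3 were then called, and 15 without A1. This comparison and that with wild type share the Prdm1 cKO libraries.

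An interaction, the amount by which loss of both genes differed from the sum of the single losses, was called for 1 of the 34 genes, Retnla, which was also the 1 gene called among all 12251 tested (0.00816%). It was -6.08 ± 0.90 on the log2(value + 1) scale (adjusted p = 0.00413, limma). This size depends on the pseudocount because the Prdm1/c-Maf cDKO libraries are at 0. It was past the threshold in 33 of 35 alternatives, with an adjusted p of 0.0910 where the filter asked for 10 in place of 1, and of 0.369 with the column set as covariate. With the index as covariate the interaction was -4.27 ± 0.83 (adjusted p = 0.257) and 0 of the 34 were called. The 7 wild-type libraries with an index under 3 were all listed at 0 for Retnla, as were the Prdm1/c-Maf cDKO libraries, whose index was 1.17 to 2.87. Low myeloid content and genotype cannot be told apart for Retnla in the Prdm1/c-Maf cDKO libraries. The interaction is also not independent evidence, because Retnla was known to depart when the genes were chosen.

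A wider list of 88 macrophage and monocyte genes, none of them among the 34, gave the same direction in Prdm1 cKO. Of 79 that were tested, 6 were called higher and 0 lower in Prdm1 cKO against wild type, with a median of 1.68 and 73 of 79 positive. Of all genes tested, 1.58% were called higher and 1.87% lower, and their median was -0.02. The largest were Ms4a8a (2.47, adjusted p = 0.00396), a tetraspan gene of alternatively activated macrophages, the lysosomal protease Ctsl (2.47, adjusted p = 0.0375) and the lectin receptor Clec4d (1.99, adjusted p = 0.0469). With the index as covariate 0 of 79 were called. The others were the plasma lectin gene Fcna (1.61), the protease Ctss (1.71) and the receptor Cd300lf (1.98). In Prdm1/c-Maf cDKO against wild type 0 of 79 were called higher and 6 lower, where 6.85% of all genes tested were lower. They were Irf8 (-3.36, adjusted p = 6.61e-05), Adam8 (-2.59), Lyn (-1.51), the lysosomal proteases Ctsd (-1.18, adjusted p = 6.86e-05) and Ctsb (-1.18), and Ncf4 (-1.17). With the index as covariate 5 of 79 were lower, where 6.29% of all genes tested were. Irf8 is also transcribed by activated T cells. Within wild type, 61 of the 79 had r above 0.6 with the index, next to 437 of 12251 genes tested.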

How the data were processed

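Per the labels' protocols, lysate of a small bulk of CD8+ T cells was cleaned with SPRI beads and made into libraries by a SMART-Seq 2 adaptation. The authors deposited a normalised expression signal per gene symbol; per the submitters' processing notes, TopHat, RSEM and DESeq were used on mm9. The sources used here give neither versions nor the scale of the signal, so sequencing depth is unknown and no count test was run. Column totals ran from 389650 to 475956. The table held 0 other columns. Columns were grouped by the genotype in their names.

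Values were taken as log2(value + 1). The 12251 genes that reached 1 in 3 or more libraries were fitted in all 25 libraries with limma 3.58.1 in R 4.3.3 (trend, robust; Benjamini-Hochberg over all genes tested), without and with the myeloid index as covariate. The fold changes understate low genes. Exact permutation tests were run in R, and the correlation resampling in NumPy 2.4.6 with ranks from SciPy 1.17.1. Scripts were tested on simulated data. Sequences and motifs came from RefSeq tables (GRCm38.p6), whose build differs from mm9.

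The 34 genes and all lists were chosen with earlier results of these data known. All 34 are accounted for, with values by library for the index genes and those called. Other genes are named from fixed lists: the called genes of a wider macrophage list and of marker lists for other cell types.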

Additional observations from a re-analysis of the deposited data

Results flagged for a closer look

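For Retnla the interaction of Prdm1 and c-Maf loss was -6.08 ± 0.90 on the log2(value + 1) scale (adjusted p = 0.00413, limma). All 3 Prdm1 cKO libraries were above all 16 wild-type libraries, while all 3 Prdm1/c-Maf cDKO libraries were listed at 0, below 1 of the 3 c-Maf cKO libraries and level with the others. The value carries the limits given with it above: the adjusted p was 0.369 beside the column set and 0.257 beside the myeloid index. Low myeloid content and genotype cannot be told apart in the Prdm1/c-Maf cDKO libraries. That Retnla departs was known from these data when the genes were chosen, so the value is not independent evidence. Groups of 3 or of 16 libraries are outside the sizes in which single libraries were screened for standing apart.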

How the results depend on the processing

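No paired analysis was possible because the columns carry no replicate numbers. The cause of the changes below was not tested. In Prdm1 cKO against wild type, 7 genes were called higher. The count was 2 with a pseudocount of 0.1, 16 with 10, 4 with a minimum of 10, 2 with the column set and 1 with the code letter as covariate. It was 12 rescaled to the CD3 genes, 11 after quantile normalisation, and 1 to 15 leaving out 1 library at a time. Calls over all genes, in either direction, were 423 in the main fit. In the same order they were 318, 624, 355, 59, 36, 595 and 540, and 78 to 684 leaving out 1 library. With the minimum of 10, 6177 genes were tested, and 27 of the 34 were among them. For the alternatives given the index and of the interaction, no count over all genes was computed. CD3 rescaling moved the median of all genes to 0.37 in Prdm1 cKO (2.90 for the 34), 0.31 in Prdm1/c-Maf cDKO and -0.18 in c-Maf cKO. Given the index, the count of 1 became 6 (2 higher, 4 lower) as exact permutation of log ratios, whose p is unadjusted, and Pmp22 turned to -0.30; it was 1 leaving out each library in turn. In Prdm1/c-Maf cDKO against wild type, the count of 0 became 1 with a pseudocount of 0.1, a minimum of 10, no trend or array weights, 5 with the code letter, and 0 to 1 leaving out 1 library. Calls over all genes were 1463 in the main fit, 1430, 1379, 1373, 2634 and 989 in these settings, and 512 to 1705 leaving out 1 library. Given the index the count among the 34 was 1 with a pseudocount of 0.1 or a C1q index, 2 with CD3 rescaling, 4 with array weights or log ratios, and 0 to 1 leaving out 1 library. For c-Maf cKO the counts were 0 in all alternatives except 2 given the index as log ratios. Over all genes, without the index, 0 to 17 were called. In Prdm1/c-Maf cDKO against Prdm1 cKO, the count of 4 was 9 with a pseudocount of 10, 1 with a minimum of 10, 0 with the column set, 14 with the code letter and 1 to 6 leaving out 1 library. Calls over all genes were 48 in the main fit, 103, 33, 0 and 167 in these settings, and 3 to 141 leaving out 1 library. Fcgr4 turned to 0.0312 with the column set. The interaction, whose alternatives were added after seeing the data, was called for 0 genes with a minimum of 10 or the column set, 2 with the code letter, and 1 to 2 leaving out 1 library. Within wild type, 19 to 24 genes correlated with the index in the alternatives. Retnla in Prdm1 cKO was called under each of 35 alternatives (highest adjusted p 0.00351). That highest value came with the minimum of 10, a filter that Retnla passed only through the Prdm1 cKO libraries. The setting is therefore no separate support.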

Other observations

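Markers of other cell types were called in Prdm1/c-Maf cDKO against wild type and in no other comparison of a knockout with wild type (limma). The dendritic cell list held Ccr7 (1.99 ± 0.33, adjusted p = 0.000438), a homing receptor that T cells also express, and Zbtb46 (-1.23 ± 0.31, adjusted p = 0.00883). The B cell gene Cd79b (1.10, adjusted p = 0.0455), the endothelial Pecam1 (1.08, adjusted p = 0.0120) and the T cell gene Cd3g (-0.90, adjusted p = 0.0399) were single calls of their lists. Of 5 erythroid genes tested, 3 were higher: Hbb-b1 (4.70 ± 1.36, adjusted p = 0.0259), Hba-a2 (3.61 ± 1.18, adjusted p = 0.0482) and Alas2 (2.67 ± 0.83, adjusted p = 0.0372). Of all genes tested 11.9% were called in either direction and 6.85% were called lower. With the myeloid index as covariate 0 of the 5 erythroid genes were called. The dendritic cell list then held 2 higher and 1 lower. The B cell list and the fibroblast and endothelium list each held 1 higher, and the T cell list 1 lower. Haemoglobin genes have near-identical copies, so their single values are uncertain. In Prdm1 cKO all 5 erythroid genes tested had a positive difference, with a median of 1.57, and 0 were called. The erythroid sum was 221 to 1841 in Prdm1 cKO, 461 to 4240 in Prdm1/c-Maf cDKO, 15.8 to 133 in c-Maf cKO and 1.38 to 1568 in wild type.

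Neutrophil markers summed to 9.03 to 42.9 in Prdm1 cKO and 5.28 to 24.4 in wild type, with Camp and Ngp under 1 in each of the 25 libraries. Of the 8 mast cell and basophil markers, 7 were under 1 in each library. Dendritic cell markers summed to 249.5 to 490.5 in Prdm1 cKO, 574 to 763 in Prdm1/c-Maf cDKO, 179 to 203 in c-Maf cKO and 94.9 to 399 in wild type. The sums are not carried by most of the genes: 4 of 11 had a positive difference from wild type in Prdm1 cKO (median -0.25), 2 of 11 in Prdm1/c-Maf cDKO (median -0.47) and 4 of 11 in c-Maf cKO (median -0.11). The B cell sum was 11.9 to 17.7 in Prdm1 cKO and 0.37 to 15.4 in wild type.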
